A study of Mus musculus with 2 samples.

Results

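Epcam encodes EpCAM, a membrane glycoprotein through which epithelial cells adhere to each other, and it was followed here in T cells sorted from mouse skin, with T cells of lung set beside them. The gene was chosen by its level in these same files, so its difference between the tissues is given as a description and carries no test. The cells were all barcodes with at least 1 unique molecular identifier (UMI) of Cd3d, Cd3e or Cd3g, the genes of the CD3 chains of the T cell receptor complex. They were 6510 of 6601 cells in skin and 8399 of 8730 in lung, and Epcam is 1 of 27514 genes listed in both matrices.

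EpCAM lies on the basolateral face of simple epithelia, where it binds EpCAM of the next cell and holds claudin-7 in a complex. It is shed by the protease ADAM17, and the stub left in the membrane is cut by presenilin-2, which frees an intracellular fragment that acts with FHL2, beta-catenin and Lef1. In skin EpCAM is best known from Langerhans cells, the dendritic cells of the epidermis, and from hair follicle keratinocytes, so that RNA released from such cells is a concern when the gene is counted in droplets that hold T cells.

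The study sequenced single regulatory T cells (Tregs) of adult mice, 1 library per tissue. The skin library came from the back of Foxp3-CreERT2GFP mice, which also carry an inducible Cre recombinase, and the lung library from Foxp3-GFP mice of a strain the labels call Tachilla, both C57Bl/6. Per the labels, collagenase was used to release the cells, and cells bearing GFP, CD4, CD3 and CD45 were sorted for 10x 3' v2 libraries. In both strains GFP reports Foxp3, the transcription factor that defines Tregs, and the sources used here give neither the number of mice nor any further treatment.

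Skin T cells held 15992105 UMIs in shared genes (median 2064.5 per cell, 1014 to 28123) and lung T cells 23479421 (median 2364, 496 to 30473). A Foxp3 UMI was seen in 369 skin T cells and 305 lung T cells, and Cd8a, a marker of the CD8 lineage, was read 1 time in skin T cells and 33 times in lung. Cd8b1, which encodes the other CD8 chain, was read more often, with 185 UMIs in 179 skin T cells and 503 UMIs in 419 lung T cells. The chain genes of gamma-delta T cells were not analysed here. Strain, annotation release and library differ together with tissue, and so does the sex of the mice: Xist stood at 1246 CPM (UMIs per 1000000 UMIs of the same cells) in skin T cells with 1 UMI in lung, and the Y-linked Ddx3y had 0 UMIs in skin T cells and 76.6 CPM in lung. These cannot be told apart from tissue, and with 1 library per group no difference has a replicate check. There were 82 barcodes present in both libraries. All intervals below are exact 95% intervals and cover counting error only.

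The share of T cells with Epcam RNA was 10.1 times as high in skin as in lung when every cell was read at the same depth. After each cell was thinned to 1000 UMIs, 420 of 6510 skin T cells held an Epcam UMI, or 6.45% (5.87 to 7.08, Clopper-Pearson), against 53 of 8282 lung T cells, or 0.640% (0.480 to 0.836). The 117 lung T cells with fewer UMIs were left out. Without thinning the shares were 12.8% of skin T cells (831 cells) and 1.56% of lung T cells (131 cells). The share depends on how many UMIs are kept: at 500 UMIs it was 3.03% in skin and 0.322% in lung, and at 2000 UMIs it was 10.7% in skin and 1.05% in lung. Skin stood above lung at every depth tried.

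**Figure D1:**
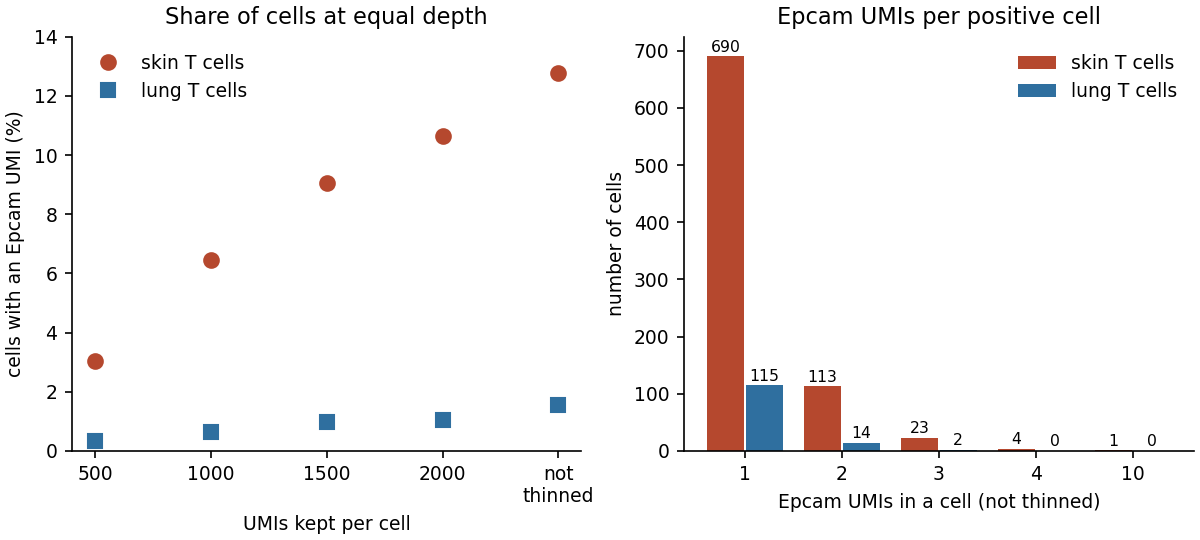
Left, percentage of T cells with at least 1 Epcam UMI after thinning each cell to 500, 1000, 1500 or 2000 UMIs and without thinning, with circles for skin and squares for lung. Right, number of T cells with 1, 2, 3, 4 or 10 Epcam UMIs without thinning, skin bars left of lung bars. The skin share is 6.45% and the lung share 0.640% at 1000 UMIs, and most positive cells in both tissues hold 1 UMI.

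Summed over cells, Epcam stood at 63.2 CPM (59.4 to 67.2, Poisson, 1011 UMIs) in skin T cells and 6.35 CPM (5.37 to 7.45, 149 UMIs) in lung, a ratio of 9.96 (8.38 to 11.9). Leaving out the 81 skin and 77 lung T cells whose barcodes occur in both libraries gave a ratio of 10.1. On the scale of log2(CPM + 5) the difference was 2.59, and Epcam took rank 111 from the skin end among the 5698 genes that reached 20 CPM in a tissue. Of those genes, 854 (15%) passed 2-fold towards skin on that scale and 287 (5.04%) passed it towards lung, and their median was 0.36. That split depends on scaling: totals without mitochondrial and ribosomal protein genes gave 593 skin and 610 lung genes, and median-of-ratios scaling gave 478 and 507, with the median moved to −0.03 and −0.04. Under these scalings the Epcam ratio was 7.59 and 7.51, and its log2 difference 2.46 and 2.28, so that Epcam was higher in skin under both.

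Most positive cells held a single Epcam UMI. In skin 690 T cells held 1, 113 held 2, 23 held 3, 4 held 4 and 1 held 10, and in lung 115 held 1, 14 held 2 and 2 held 3. The skin cell with 10 Epcam UMIs was unlike the others: among its 8297 UMIs were 15 of Krt19 and 9 of Krt8, keratins of simple and follicular epithelium, 11 of Trp63, the p63 transcription factor of basal keratinocytes, and 5 of the CD3 genes. The next highest skin cells had 4 UMIs, and together the cells with 2 or more made up 17.0% of positive cells in skin and 12.2% in lung.

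The level was spread over shallow and deep skin cells. Skin T cells ranked by total UMIs in 5 equal groups, shallow to deep, had 83.6, 71.8, 78.2, 63.0 and 48.1 CPM of Epcam, so that the deepest group had the lowest level. The lung groups had 7.68, 6.31, 3.76, 4.43 and 8.25 CPM, with no such order. Skin T cells with 1, 2, 3 to 5 and 6 or more CD3 UMIs stood at 41.3, 83.2, 67.7 and 61.3 CPM, and the interval of the cells with 1 CD3 UMI (23.6 to 67.1) reached that of the others. The 369 skin T cells in which a Foxp3 UMI was read had 65.7 CPM and those without one 63.0 CPM, a ratio of 1.04 (0.812 to 1.32).

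The gene is on the plus strand of mouse chromosome 17 (ENSMUSG00000045394, GRCm38, 87635979 to 87651129). Its transcript Epcam-201 has 10 exons, and the untranslated 3' end, from which these libraries count, lies in exon 10 from 87650467 to 87651106. No other gene of that annotation, GENCODE M21, overlaps it. The skin and lung libraries were counted on gene sets of 27998 and 31053 entries, whose Epcam models were not compared here, so a difference between those models cannot be told apart from tissue.

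A UMI of a keratinocyte gene was read in 861 of 6510 skin T cells, and Epcam stood at the same level in cells with and without one. The 14 keratinocyte genes looked up summed to 93.0 CPM in skin T cells and 33.0 CPM in lung, and 7 of them had 0 UMIs in lung T cells. Krt14, the keratin of basal keratinocytes, stood at 9.32 CPM in skin T cells (149 UMIs in 24 cells) with 0 in lung, and Krt5, its partner keratin, had 19 UMIs in skin T cells. Epcam, at 63.2 CPM, was thus above every gene of this list in skin T cells, the next being Sfn, which encodes 14-3-3 sigma, at 39.0 CPM in skin T cells and 14.8 CPM in lung. Krt10, a keratin of suprabasal epidermis, had 14.1 CPM in skin T cells and 7.20 in lung, and Lgals7, which encodes galectin-7, had 12.8 and 7.75, so that several of the list's genes were read in lung T cells too. Each library counts 1 UMI per captured 3' end, so these levels need no correction for transcript length.

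The 861 skin T cells with a UMI of the keratinocyte list had 63.3 CPM of Epcam and the 5649 skin T cells without one 63.2 CPM, a ratio of 1.00 (0.845 to 1.18). Sfn, which was read in lung T cells too, was found in 484 skin T cells. The keratins Krt14, Krt5, Krt15 and Krt17 had no UMI in lung T cells. A split by these keratins gave 0.962 (0.511 to 1.65), but it rests on 13 Epcam UMIs in 60 cells. Skin T cells with 0, 1, 2, 3 or 4, and 5 or more keratinocyte genes had 63.2, 56.9, 89.6, 419 and 131 CPM. The last 2 groups hold 9 cells, in which the cell with 10 Epcam UMIs is included. In the 6501 skin T cells with under 3 keratinocyte genes Epcam stood at 62.6 CPM (58.8 to 66.6). The 9 cells stood at 278 CPM (148 to 476), a ratio of 4.44 (2.36 to 7.63), on 13 Epcam UMIs.

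Most Krt14 RNA sat in a few cells that held little of the Epcam RNA. The 9 skin T cells with 3 or more keratinocyte genes held 130 of the 149 Krt14 UMIs and 13 of the 1011 Epcam UMIs, 0.100 Epcam UMIs per Krt14 UMI, against 52.5 per Krt14 UMI in the other 6501. Against the whole keratinocyte list the values were 30.1 Epcam UMIs per 1000 list UMIs in the 9 cells and 945 in the other cells. The 9 cells were picked by their keratinocyte genes, so a low ratio in them follows in part from that choice, and the values are a description.

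**Figure D2:**
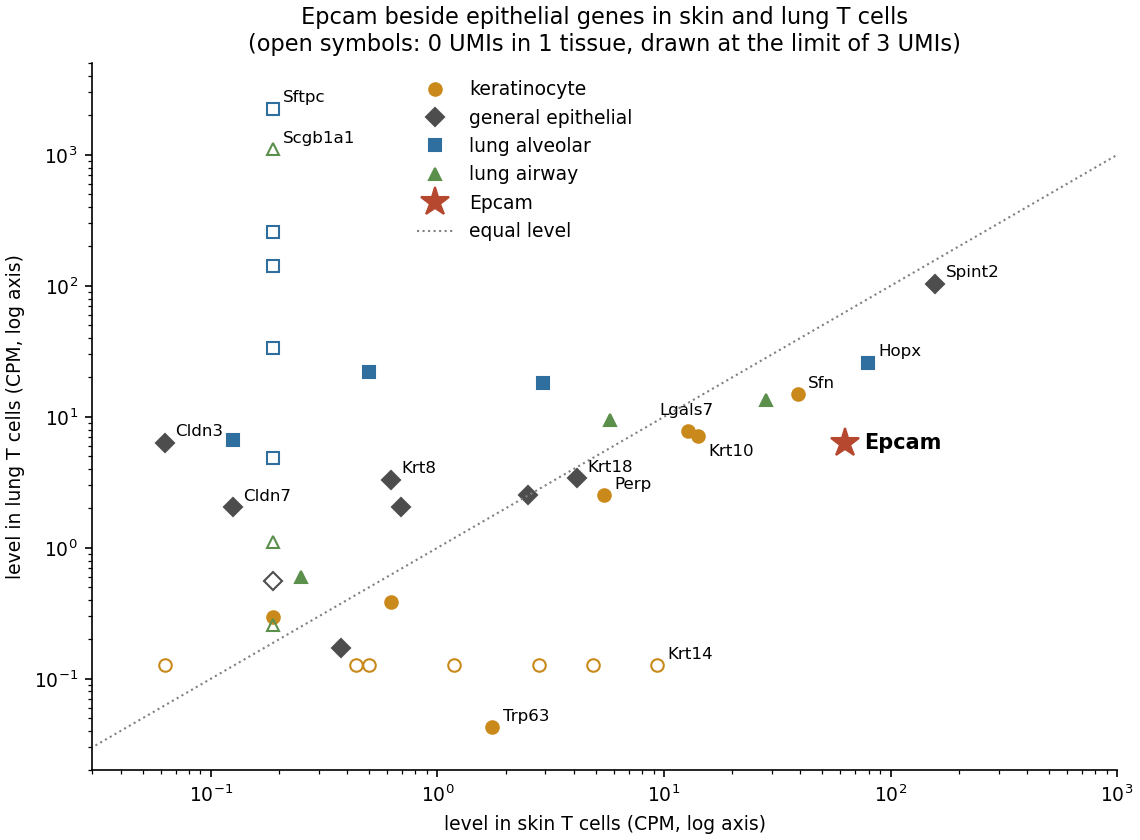
Level of Epcam and of keratinocyte, general epithelial, lung alveolar and lung airway genes in skin T cells (horizontal) and lung T cells (vertical), in CPM on log axes. Each symbol is 1 gene, open symbols had 0 UMIs in 1 tissue and are drawn at the limit of 3 UMIs, and the dotted line marks equal levels. Epcam lies at 63.2 CPM in skin and 6.35 CPM in lung, to the right of all keratinocyte genes.

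General epithelial genes gave the same picture. Of 9 such genes Spint2 alone reached 20 CPM in skin T cells, at 158 CPM against 104 in lung. It encodes the protease inhibitor HAI-2. Cdh1 (E-cadherin), Krt8, Krt18, Krt19, Cldn7, Cldn4 and Cldn3 each had between 0.0625 and 4.13 CPM in skin T cells, and Elf3, a transcription factor of epithelia, had 0 UMIs. Skin T cells with a UMI of the general epithelial list had 66.3 CPM of Epcam and those without one 61.4, a ratio of 1.08 (0.950 to 1.23). The 3229 skin T cells with no UMI of any keratinocyte, general epithelial, alveolar or airway gene still had 64.0 CPM (58.1 to 70.3), against 6.23 CPM (4.20 to 8.90) in the 2143 such lung T cells, a ratio of 10.3 (7.09 to 15.4).

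Langerhans cells left no mark by their defining gene. Cd207, which encodes langerin, had 0 UMIs among T cells of either tissue, a limit of 0.188 CPM in skin and 0.128 CPM in lung at 3 UMIs. Class II genes were present: Cd74, the invariant chain, stood at 592 CPM in skin T cells and 102 CPM in lung, and H2-Aa at 89.7 and 19.8 CPM. Skin T cells with a UMI of the Langerhans and dendritic list had 64.6 CPM of Epcam and those without 58.3, a ratio of 1.11 (0.949 to 1.30). Skin T cells with 1, 2, and 3 or 4 of these genes had 64.2, 68.7 and 61.2 CPM. The 37 skin T cells with 5 or more had 19.8 CPM (5.39 to 50.7), below the 63.2 CPM of all skin T cells. That value rests on 4 Epcam UMIs at a median depth of 4792 UMIs, and its interval holds the 48.1 CPM of the deepest group of skin T cells.

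Cells with many fibroblast genes, which should not make EpCAM, were set beside skin T cells. Most of them, 76 of 88, held a CD3 UMI, so they are no clean measure of background. The 88 skin cells with 5 or more of 9 fibroblast genes, with or without CD3, held 7 Epcam UMIs, 13.7 CPM (5.52 to 28.3), against 66.3 CPM in the 5774 skin T cells with at most 1 such gene, a ratio of 0.207 (0.083 to 0.429). At 1000 UMIs 2.27% of them (0.276 to 7.97) held an Epcam UMI, against 6.46% (5.84 to 7.13) of those T cells, and these intervals overlap. The median depths were 5653.5 and 1999.5 UMIs. The fibroblast-gene set was chosen after the data were seen. Of 28 T cell genes compared in the same way the median ratio was 0.184 (range 0.111 to 4.40, the highest being Il1r2), with Cd3g at 0.146 and Areg at 0.156. Epcam, at 0.207, lay near that median on 7 UMIs in fibroblast-gene cells. From which cells its RNA came was not tested. Keratinocyte genes ran both ways: Sfn had a ratio of 0.148 (0.030 to 0.434, 3 UMIs in fibroblast-gene cells), lower than Epcam, Krt14 0.305 (1 UMI), Lgals7 2.09 (10 UMIs) and Krt10 5.28 (33 UMIs). In the 21 skin cells with 3 or more endothelial genes there were 0 Epcam UMIs, which allows a share of up to 14.3% of cells. As a level, the upper end of their interval was 36.0 CPM at a median depth of 3149 UMIs. That is below the 63.2 CPM of all skin T cells and the 48.1 CPM of the deepest group of them.

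The 91 skin cells without a CD3 UMI had 10 Epcam UMIs, 68.6 CPM (32.9 to 126), a ratio of 1.09 (0.519 to 2.0) to skin T cells. Their median depth was 1291 UMIs. They held RNA of several cell types: their fibroblast list summed to 11267 CPM and their T cell sort genes to 638 CPM, against 2156 and 4115 CPM in skin T cells.

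**Figure D3:**
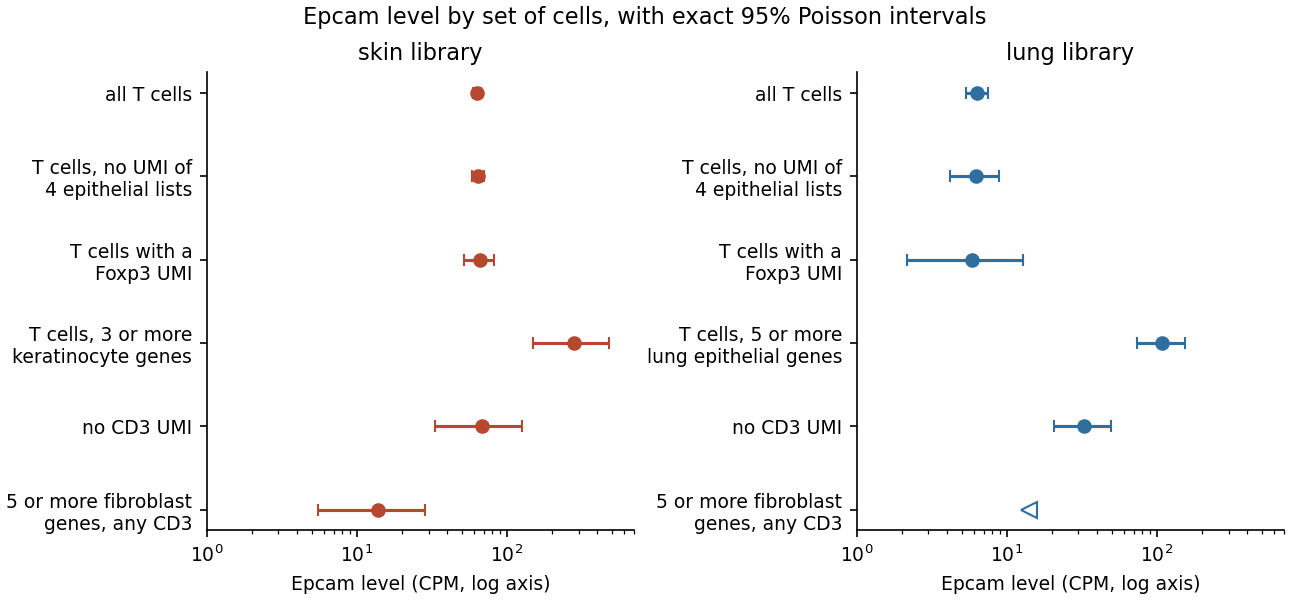
Epcam level in CPM (log axes) with exact 95% Poisson intervals in sets of cells, skin in the left panel and lung in the right panel. A left-pointing triangle marks a set with 0 Epcam UMIs, drawn at the upper end of its interval. Skin T cells, all or without epithelial list UMIs, stand near 63 CPM and lung T cells near 6 CPM. The 9 skin T cells with 3 or more keratinocyte genes stand at 278 CPM, with 10 of their 13 Epcam UMIs in 1 cell. Lung T cells with 5 or more lung epithelial genes stand at 108 CPM.

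In lung, T cells rich in epithelial genes had more Epcam than the others, and they held a larger part of its UMIs than in skin. In skin the higher level of such cells rests mostly on 1 cell, which held 10 of their 13 Epcam UMIs. The 38 lung T cells with 5 or more alveolar or airway genes held 31 of the 149 Epcam UMIs, 108 CPM (73.6 to 154), and 57.9% of them had an Epcam UMI at a median depth of 6632 UMIs. The other 8361 lung T cells stood at 5.09 CPM (4.21 to 6.09), a ratio of 21.3 (13.8 to 31.8). Lung T cells with 0, 1, 2, and 3 or 4 of these genes had 4.97, 4.83, 6.19 and 3.45 CPM, so that the higher level was seen in the 38 cells alone. With those cells left out the ratio of skin over lung was 12.4 (10.3 to 15.2).

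The 38 cells carried Epcam and surfactant RNA in about the proportion seen in lung cells without CD3 that were picked by the same genes. Per 1000 UMIs of Sftpc, the surfactant protein C gene of alveolar type II cells, they held 0.639 Epcam UMIs, and the 31 lung cells with no CD3 UMI and 5 or more lung epithelial genes held 0.599. In the other 8361 lung T cells it was 26.4. The 38 and the 31 cells were picked by the same rule and held 31 and 21 Epcam UMIs. A like proportion follows in part from that choice, and the values are a description. Sftpc RNA was found widely, with 4466 UMIs in those 8361 cells. In the 35 lung cells without CD3 that carried alveolar genes Epcam stood at 143 CPM (88.6 to 219).

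Below that level the lung T cell signal was not told apart from background. The 102 lung cells without CD3 that carried endothelial genes had 0 Epcam UMIs at a median depth of 1785.5 UMIs, which allows a share of up to 2.94%, against 1.56% in lung T cells without thinning. At 1000 UMIs the limit was 3.61%, against 0.640% in lung T cells. The 187 lung cells with 3 or more endothelial genes, with or without CD3, had 4 Epcam UMIs, 7.43 CPM (2.02 to 19.0), an interval that holds the lung T cell level of 6.35 CPM. The 42 lung cells with 5 or more fibroblast genes had 0.

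The splits of lung T cells by the macrophage and keratinocyte lists depended on the 38 cells. Over all lung T cells, those with a UMI of the macrophage and monocyte list, in which Lyz2 is also made by alveolar type II cells, had 3.24 times (2.25 to 4.61, 48 Epcam UMIs in 870 cells) the Epcam level of those without. For the keratinocyte list the value was 2.05 times (1.32 to 3.10). In the 8361 lung T cells with under 5 lung epithelial genes these ratios were 1.43 (0.825 to 2.35, 19 Epcam UMIs) and 0.751 (0.334 to 1.48, 9 Epcam UMIs), and the interval of each holds 1. What part released RNA has in the lung level was not tested further.

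The RNA that went with Epcam was compared in T cells thinned to 1000 UMIs, 420 positive and 6090 negative cells in skin and 53 positive and 8229 negative cells in lung. Without thinning 831 skin T cells held an Epcam UMI, so many of the cells called negative here hold Epcam RNA. That by itself makes the sets alike. In skin few genes differed between them. Of 3109 genes that reached 50 CPM in a set, 4 (0.129%) were at least 2-fold higher in positive cells and 4 (0.129%) at least 2-fold lower. These 8 genes reached 50 CPM in only 1 of the 2 sets, a filter that by itself favours genes that differ, and the higher ones rest on few UMIs in positive cells. Among them were Etfbkmt, a methyltransferase gene (26 UMIs), Neb, which encodes nebulin (38 UMIs), and Gpat4, the gene of an enzyme of glycerolipid synthesis (25 UMIs). The lower ones were Ccl21a, a chemokine gene of lymphatic endothelium, Lum, a fibroblast proteoglycan gene, Ifitm2 and Map7d1.

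By marker lists, positive skin T cells carried T cell sort genes at about the same level, and their summed fibroblast, macrophage and endothelial RNA was lower. The summed T cell sort genes stood at 4445 CPM in positive and 4320 CPM in negative skin T cells, a ratio of 1.03 (0.981 to 1.08). Most of that sum is the CD3 genes, by which the cells of both sets were chosen, so a ratio near 1 follows in part from that choice. Outside that choice, Ptprc, the CD45 gene, had a ratio of 0.989 (0.886 to 1.10) and Cd4 0.874 (0.670 to 1.12). For the keratinocyte list the sums were 78.6 and 73.9 CPM, a ratio of 1.06 (0.723 to 1.52). Its genes ran both ways on few UMIs. Krt14 had 0 UMIs in positive cells and 26 in negative cells (ratio 0 to 2.21), and Sfn a ratio of 0.971. Perp had 2.52, Krt17 1.71, and Krt10 and Lgals7 1.45 each, on 2 to 6 UMIs in positive cells. The interval of each of these genes holds 1, and the list's other genes had 0 UMIs in positive cells. The fibroblast list had a ratio of 0.661 (0.583 to 0.746), the macrophage and monocyte list 0.414 (0.219 to 0.716) and the endothelial list 0.595 (0.344 to 0.965). The last 2 rest on 13 and 17 UMIs in positive cells. Such intervals treat each UMI as independent, but this RNA can sit in a few cells, so they may be too narrow. General epithelial genes had a ratio of 1.25 (0.989 to 1.56), most of it Spint2 with 77 of 85 UMIs in positive cells.

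In lung 5 of the 53 positive T cells held nearly all of the alveolar RNA. The alveolar list summed to 30377 CPM in positive and 1116 CPM in negative lung T cells, a ratio of 27.2 (25.8 to 28.7), but 1586 of the 1610 alveolar UMIs and 230 of the 232 Lyz2 UMIs of positive cells were in 5 cells with 5 or more lung epithelial genes. With the cells rich in those genes left out of both sides, the 48 other positive cells had 500 CPM of the alveolar list (24 UMIs) and the 8197 negative cells 277 CPM, a ratio of 1.81 (1.16 to 2.70). Lyz2 then had a ratio of 0.938 (0.113 to 3.41) and the general epithelial list 1.26 (0.462 to 2.76), against 27.4 and 2.83 in all 53. The keratinocyte list had 0 UMIs in positive lung T cells. The T cell sort genes, which include the CD3 genes that chose the cells, had a ratio of 0.996 (0.848 to 1.16) in all and 1.09 (0.927 to 1.27) in the 48.

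**Figure D4:**
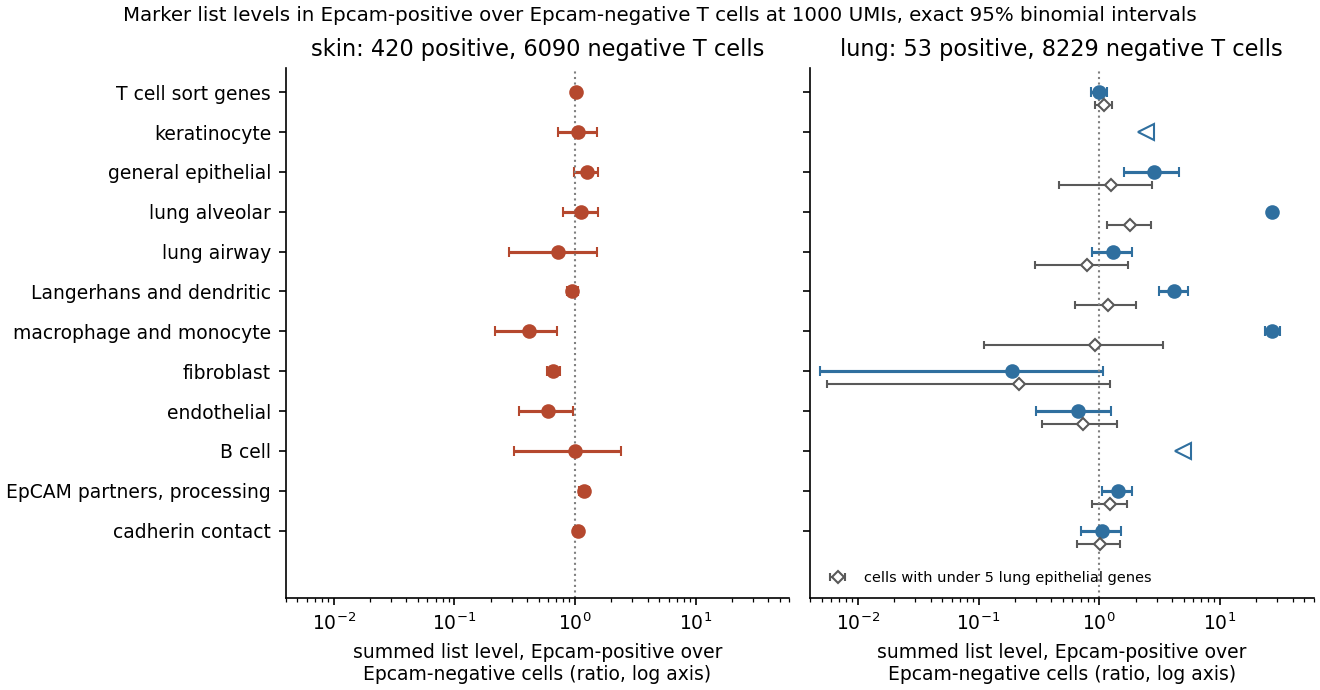
Ratio of summed marker list levels in Epcam-positive over Epcam-negative T cells at 1000 UMIs per cell (log axes, exact 95% binomial intervals), skin in the left panel and lung in the right panel. Left-pointing triangles mark lists with 0 UMIs in positive cells, drawn at the upper end of the interval. Diamonds in the lung panel leave out cells with 5 or more lung epithelial genes and are drawn only for lists with a UMI in positive cells. In skin the keratinocyte list lies at 1.06, and in lung the alveolar list lies at 27.2 over all cells and at 1.81 without those cells.

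Likeness to Epcam was weak for every gene in skin T cells. Across 6510 cells thinned to 1000 UMIs, Pearson's r of log counts over 5018 genes found in at least 2% of cells ran from −0.049 to 0.062. The points share 1 library and 1 depth, and correlations of this size in counts this sparse are no finding. Among the 15 highest were Tnfrsf18 (r = 0.062), which encodes the Treg receptor GITR, H2-D1 (0.060), Malat1, S100a6, Neb, Etfbkmt, Cd53, Cd200r1, Lmna, Fxyd5, H2-K1, Cd27, Gpat4 and Fbxo11 (0.044). Among the 5 lowest were Wdr89 (−0.048), Actb, Tmsb4x and R3hdm1. A second random thinning kept 5 of the 15, and of the 15 only Tnfrsf18 and H2-D1, a class I MHC gene, were among the 15 highest in all 6 settings tried. Krt14 had r = −0.008, Krt10 0.012, Spint2 0.016 and Cd74 0.004, all below the 15 highest. In lung the 3 highest of 4251 genes across 8282 T cells were Sftpa1 (0.103) and Sftpc (0.102), both surfactant genes, and Lyz2 (0.100), with the cells rich in lung epithelial genes included.

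Epcam was read in skin T cells of every state looked at, and more often in cells with some state genes than in cells without them. Skin T cells thinned to 1000 UMIs were split by whether they held a UMI of each of 24 genes of Treg state, and 5.64% to 8.95% of the cells with the gene held an Epcam UMI. The share in cells with the gene over that in cells without it ran from 0.866 (Cd40lg) to 1.45 (Il1r2), with a median of 1.09. With 24 genes compared and no test, single splits are given as values.

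Il1r2, the gene of the decoy receptor for interleukin 1, had the highest share, 8.95% (6.93 to 11.3) of cells with it and 6.15% (5.55 to 6.80) of cells without. Gzmb, which encodes granzyme B, gave 8.32% (6.13 to 11.0) and 6.28% (5.68 to 6.93). Il10 gave 7.93% (6.48 to 9.59) and 6.11% (5.48 to 6.80), and Cd44 7.57% and 5.96%. In these 4 splits the share was higher in cells with the gene, and the intervals of both sides overlap for Gzmb, Il10 and Cd44 but not for Il1r2. Ikzf2, which encodes the Treg factor Helios, gave 6.79% (6.10 to 7.53) and 5.44% (4.39 to 6.66), and Cxcr6, a chemokine receptor gene, 7.21% and 5.96%. Areg, the amphiregulin gene, gave 6.86% and 6.02%, and Gata3, a type 2 transcription factor gene, 6.59% and 6.34%. Calca, the gene of the neuropeptide CGRP, gave 6.57% and 6.42%, and Il2, the interleukin 2 gene, 6.35% and 6.46%, which lie within each other's intervals. Read from the other side, Il1r2 stood at 224 CPM in Epcam-positive and 149 CPM in Epcam-negative skin T cells, a ratio of 1.5 (1.20 to 1.86), and Gzmb had a ratio of 1.28 (1.03 to 1.58).

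Summed at full depth the same splits came out otherwise for some genes, and there the cells with a gene are also the deeper ones. The ratios of the Epcam level ran from 0.826 to 1.60 with a median of 1.03. Il1r2 and Gzmb were below 1, at 0.896 (0.772 to 1.04) and 0.935, and Ikzf2 was highest, with 65.3 CPM in 5921 cells that had it and 40.8 CPM in 589 cells that did not (1.60, 1.22 to 2.14). Il10 had 71.0 against 58.9 CPM (1.20, 1.06 to 1.37), Calca 71.1 against 59.3 (1.20, 1.05 to 1.37) and Cxcr6 66.6 against 57.6 (1.16, 1.01 to 1.32). Il2 was lowest, at 54.0 against 65.3 (0.826, 0.693 to 0.979). Ikzf2, Il10 and Cxcr6 lean the same way on both scales, while Il1r2 and Gzmb change direction with the scale. Il1r2 RNA was not particular to T cells poor in fibroblast RNA. It stood at 676 CPM in the skin cells with 5 or more fibroblast genes and 154 CPM in skin T cells with at most 1 (4.40, 3.91 to 4.94). What part those cells have in the Il1r2 splits was not tested. Calca stayed above 1 and Il2 below 1 on both, but at equal depth their share ratios were near 1, at 1.02 and 0.982. Cd44, with a share ratio of 1.27 at equal depth, had a ratio of 1.01 at full depth.

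Lung T cells spread more widely on few UMIs. In the 8361 lung T cells with under 5 lung epithelial genes, 19 of the 24 genes had a UMI in at least 50 cells, and the Epcam ratios at full depth ran from 0.224 to 4.04 with a median of 1.14. Klrg1, an inhibitory receptor gene of effector cells, had 17.5 CPM of Epcam in 240 cells with it and 4.51 CPM in those without (3.89, 2.21 to 6.47, 18 UMIs). At equal depth 4 of 122 cells with Klrg1 held an Epcam UMI, 3.28% (0.900 to 8.18), against 0.542% (0.394 to 0.726) of those without. Gata3 gave 7.31 against 4.05 CPM (1.80, 1.23 to 2.63), and at equal depth 1.22% (0.653 to 2.08) against 0.487% (0.340 to 0.677). These splits leaned the same way on both scales.

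Of the other lung splits, Itgae and Il10 rest on 0 and 1 positive cells at equal depth, and Ccr7 leaned the same way on both scales. Itgae, the CD103 integrin gene whose product binds E-cadherin, had 12.7 against 4.82 CPM (2.63, 1.22 to 5.02, 10 UMIs). At 1000 UMIs 0 of 74 cells with it held an Epcam UMI (0 to 4.86%), against 0.587% of those without. That interval holds shares well above 0.587%, so 74 cells are too few to show whether the split holds. Il10 had 19.6 against 4.86 CPM (4.04, 1.59 to 8.61, 7 UMIs), and at equal depth 1 of 50 cells, or 2.0% (0.051 to 10.6), against 0.574%. Ccr7, the lymph node homing receptor gene, had 3.61 CPM in cells with it and 7.27 in those without (0.497, 0.338 to 0.726), and at equal depth 0.433% (0.231 to 0.739) against 0.668% (0.465 to 0.927), with intervals that overlap.

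**Figure D5:**
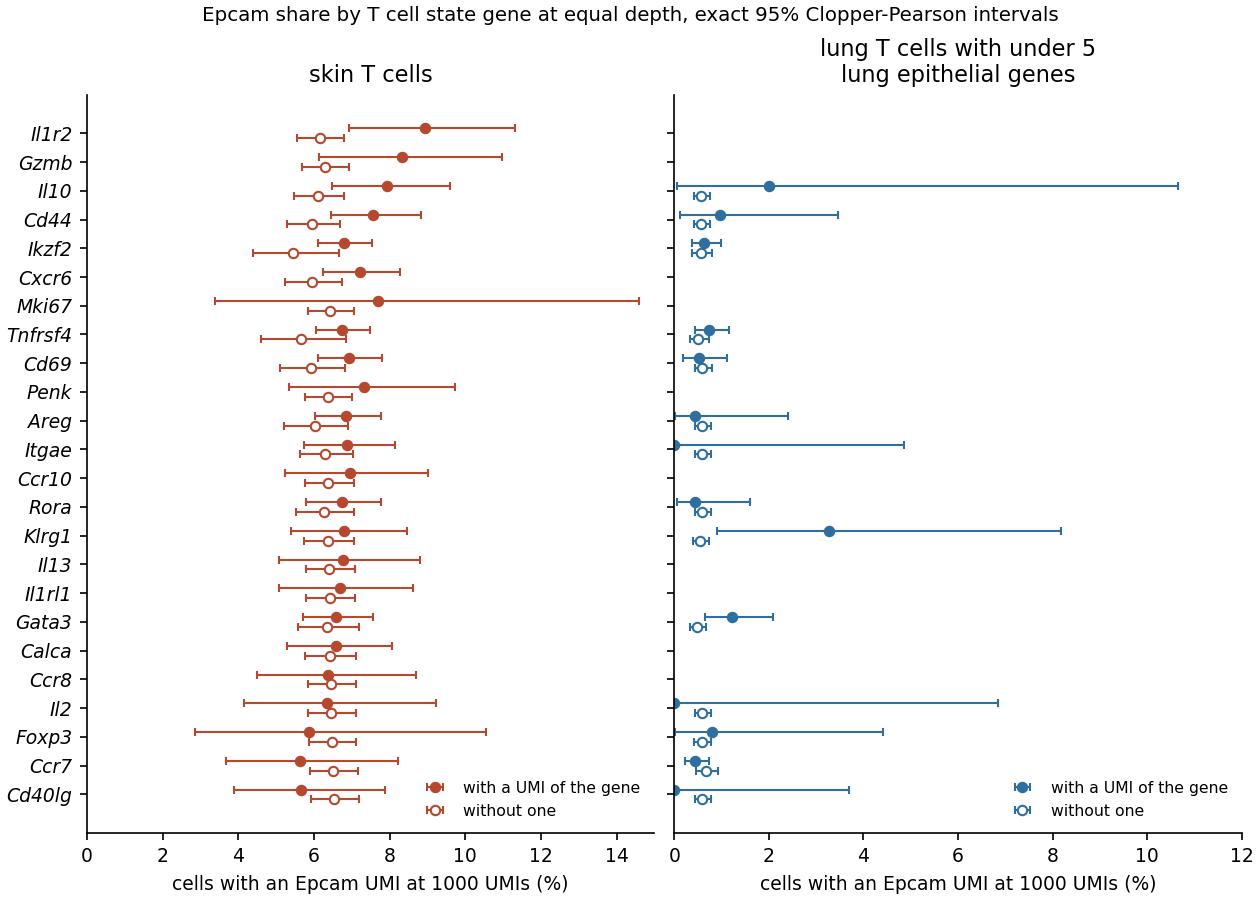
Percentage of T cells with an Epcam UMI after thinning to 1000 UMIs, with exact 95% Clopper-Pearson intervals, in cells with (filled) and without (open) a UMI of each state gene, for skin T cells (left panel) and lung T cells with under 5 lung epithelial genes (right panel, genes with a UMI in at least 50 thinned cells). Genes are ordered by the ratio of the 2 skin shares. The skin shares of cells with the gene lie between 5.64% and 8.95%, with Il1r2 at the top.

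The gene set around EpCAM was present in part. Of 19 genes of EpCAM's partners, proteases and signalling, 10 reached 20 CPM in either tissue, of which 4 were at least 2-fold higher in skin T cells and 1 in lung, beside 15% and 5.04% of all genes. Their median log2 difference was 0.79, against 0.36 over all 5698 genes. The 4 were Cd44, Ctsl, Adam17 and Psen2, and under either other scaling Cd44 and Ctsl alone passed 2-fold.

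The proteases that shed and cut EpCAM were read in both tissues. Adam17 stood at 28.8 CPM in skin T cells and 10.2 in lung, and its relative Adam10 at 50.8 and 23.8. Psen2, the presenilin that releases the intracellular fragment, stood at 112 and 51.8 CPM. St14, which encodes matriptase, a protease that cleaves EpCAM, stood at 7.82 CPM in skin T cells and 1.41 in lung, and Spint2, whose product inhibits it, at 158 and 104. Ctsl, the cathepsin L gene, had 61.6 and 17.4 CPM.

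Its membrane partners were unevenly present. Cd44, an adhesion receptor gene, stood at 360 CPM in skin T cells and 30.5 in lung, and Cd9, a tetraspanin gene, at 66.8 and 84.8. Cldn7, which encodes the claudin that EpCAM binds, was nearly absent from skin T cells with 2 UMIs, against 48 in lung. Tspan8, a tetraspanin gene, had 0 UMIs and 124. Of the genes that act with the fragment, Ctnnb1 stood at 60.4 and 37.1 CPM, Lef1 at 42.6 and 272, and Fhl2 at 3.56 and 2.47. Lef1 was thus the 1 gene of this list at least 2-fold higher in lung. Within skin, the summed list stood at 1152 CPM in Epcam-positive and 964 CPM in Epcam-negative T cells, a ratio of 1.20 (1.09 to 1.31), with Cd44 at 1.26 (1.09 to 1.46).

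Genes of cadherin contacts, the other adhesion system of epithelia, held 6 of 9 members above 20 CPM, of which 3 passed 2-fold towards skin and 0 towards lung, beside 15% and 5.04% of all genes. The same 3 passed under totals without mitochondrial and ribosomal protein genes, where 593 of 6775 genes passed towards skin, and under median-of-ratios scaling, where 478 of 5608 did. Itgae stood at 320 CPM in skin T cells and 10.7 in lung, Ctnna1, the alpha-catenin gene, at 50.4 and 11.8, and Iqgap1, a scaffold gene of the cytoskeleton, at 394 and 84.9. Cdh1 itself was read 11 times in skin T cells, against 48 times in 27 lung T cells, 2.04 CPM. In lung cells without CD3 it stood at 29.9 CPM. In Epcam-positive over Epcam-negative skin T cells the list gave 1.06 (0.977 to 1.15), with Itgae at 1.07 (0.899 to 1.26).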

How the data were processed

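The authors deposited raw UMI counts, one value for each gene in each cell barcode, without normalization, and had already called the barcodes as cells. Cell Ranger and mm10 are named in the submitters' processing notes, and per the file headers the lung matrix was written by software version 3.0.2. A second lung table, of barcodes that all occur in the first, served as an alternative only. Gene identifiers present in both annotations were used, under the lung symbols. Positions are from the GRCm38 (mm10) annotation GENCODE M21. No doublet caller was run. Cells with many genes of another type are given apart, and the 6% of barcodes with the most UMIs were left out as an alternative.

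Counts were summed over cells and divided by their total (CPM). Thinning drew 1000 UMIs per cell without replacement (seed 20), and log2 differences have 5 CPM added. With 1 sample per group no test was run. Levels carry exact Poisson, shares exact Clopper-Pearson and ratios exact binomial intervals. A count of 0 is read against a limit of 3 counts. The gene, its lists, the limits and the naming rule were chosen with earlier results of these data known. That rule takes Epcam, the 15 genes most and 5 least correlated with it, the epithelial and dendritic list genes, and from the other lists those that differ most or have a role for EpCAM. A few genes that the rule would name are not reported here. Some list members and state genes were named after their values were seen. The functions for thinning, ratios and correlation were tested on simulated data. Python 3.11.15, numpy 2.4.6, pandas 2.3.3, scipy 1.17.1 and matplotlib 3.10.9 were used.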

Additional observations from a re-analysis of the deposited data

Results flagged for a closer look

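A pair of marker lists split the Epcam level in opposite directions in the tissues, and neither difference was tested. Skin T cells with a UMI of the fibroblast list had 0.865 times the Epcam level of those without (0.762 to 0.980), and lung T cells with one had 2.06 times (1.30 to 3.14). For the melanocyte and Schwann cell list the ratio was 0.373 in skin (0.102 to 0.959, 4 Epcam UMIs in cells with the list) and 4.41 in lung (1.59 to 9.84, 6 Epcam UMIs). Cells with a UMI of the fibroblast list were deeper in both tissues, at a median of 2298 against 1938 UMIs in skin and 2839 against 2339 in lung. In the 8361 lung T cells with under 5 lung epithelial genes the fibroblast list had 0.556 times the level (0.20 to 1.25, 6 Epcam UMIs), and no Epcam UMI was in the 41 cells with a UMI of the melanocyte and Schwann cell list. Without the 38 cells rich in lung epithelial genes neither lung ratio was above 1.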

How the results depend on the processing

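The skin share stayed within its counting interval under 11 alternatives, the lung share under 12, the skin over lung ratio under 9 and the keratinocyte split under 6. Some of these could change little or nothing. No skin T cell had 5 or more lung epithelial genes, so that setting left the skin share as it was. Leaving out keratinocyte-gene cells took away 9 skin T cells and 1 lung T cell. The shares moved with depth: at 500, 1500 and 2000 UMIs and without thinning they were 3.03%, 9.06%, 10.7% and 12.8% in skin and 0.322%, 0.978%, 1.05% and 1.56% in lung. The ratio of 9.96 became 12.6 in T cells with at most 2 dendritic genes, 12.4 in those with under 5 lung epithelial genes (chosen after seeing the data, as were leaving out keratinocyte-gene cells, leaving out shared barcodes, lung lists and states without those cells, and a second seed for the correlations), 7.59 with totals free of mitochondrial and ribosomal protein genes and 7.51 with median-of-ratios scaling. The keratinocyte split of 1.00 became 0.597 with Krt14 and Krt5 alone, which rests on 4 Epcam UMIs in 27 cells. The 287 lung genes became 610 and 507 under the 2 scalings and the 854 skin genes 478 under median-of-ratios, so that the skin side held 49.3% and 48.5% in place of 74.8%. Of the 15 most correlated genes, 5 to 13 were found again. No paired analysis was possible because there is 1 library per tissue and no test. The lung values rest on 149 Epcam UMIs.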
